A study of Mus musculus with 52 samples.

Results

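The genes described here are 7 enzymes and transporters through which immune cells handle arginine, prostaglandin and tryptophan: Arg1, Nos2, Ass1, Slc7a2, Ptgs2, Ptges and Ido1. They were found by symbol among 57010 genes of the count table, and each symbol matched 1 gene. All mice were hCD40tg, which means that they carried a human CD40 transgene, and bore tumors of MC38-CEACAM5, a mouse colon carcinoma line that expresses CEACAM5. They received vehicle, a CD40 antibody (CD40 mAb) or ATOR-4066, a bispecific antibody that binds CD40 and CEACAM5. PolyA RNA was sequenced from whole tumor, from CD45+Ly6G- cells sorted out of tumors (leukocytes with neutrophils gated away), from lymph node and from blood. No source used here gives the promoter that drives the transgene, the doses and times, or the age and sex of the mice.

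The comparisons used 50 of 52 libraries. In the order vehicle, CD40 mAb and ATOR-4066 there were 4, 5 and 4 tumor libraries, 4, 3 and 3 of sorted cells, 4, 4 and 5 of lymph node and 5, 5 and 4 of blood. Equal animal numbers in tumor, lymph node and blood denote the same mouse, as read from the titles, whereas the sorted cells came from other mice. The totals ran from 47.4 to 64.2 M counts in tumor, 30.2 to 47.4 M in sorted cells, 46.3 to 138 M in lymph node and 33.5 to 44.1 M in blood, where haemoglobin genes took 69.8 to 88.2% of counts. Lymph node vehicle 3 was left out because its tissue markers went against its label: fibroblast markers summed to 11580 CPM (counts scaled to a common library total), against 404.4 to 1684 in the other lymph node libraries, and B cell markers to 4.07. Tumor ATOR-4066 3 was left out because its B cell markers summed to 2355 CPM. Its values were 253.7 CPM for Arg1, 58.3 for Nos2, 72.4 for Ptgs2 and 34.5 for Ptges. Values with both libraries put back are given where they alter a result.

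Arginine is the shared substrate of 2 enzymes that myeloid cells use in different states. Arginase 1 (Arg1) splits it into ornithine and urea, which depletes arginine around T cells and feeds polyamine synthesis, and the inducible nitric oxide synthase (Nos2) turns it into nitric oxide and citrulline. Slc7a2 carries arginine into the cell, and argininosuccinate synthase (Ass1) joins citrulline to aspartate on the way back to arginine. Cyclooxygenase 2 (Ptgs2) and microsomal prostaglandin E synthase (Ptges) act in sequence to make prostaglandin E2 from arachidonic acid. Indoleamine dioxygenase (Ido1) opens the ring of tryptophan, the entry to kynurenine. Ptgs2, Ptges and Ido1 are also made by epithelial and stromal cells.

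Promoters were available for 3 of the 7 genes (Ass1, Ptgs2 and Ptges), from RefSeq on GRCm38.p6. The 2 shown here belong to consecutive enzymes, and under vehicle the RNA of both was lower in sorted cells than in whole tumor. Each runs 5′ to 3′ on the gene's strand from 250 bases before the RefSeq start to 30 bases from the start on, with the matches described after them in capitals. The Ptgs2 promoter lies at chr1:150099781-150100060 on the plus strand and the Ptges promoter at chr2:30903268-30903547 on the minus strand.
Ptgs2: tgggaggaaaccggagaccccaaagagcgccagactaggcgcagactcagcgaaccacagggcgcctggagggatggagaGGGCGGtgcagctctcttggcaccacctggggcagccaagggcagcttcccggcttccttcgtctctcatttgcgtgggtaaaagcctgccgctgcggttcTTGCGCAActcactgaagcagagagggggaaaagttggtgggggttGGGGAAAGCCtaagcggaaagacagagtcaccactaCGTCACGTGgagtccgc
Ptges: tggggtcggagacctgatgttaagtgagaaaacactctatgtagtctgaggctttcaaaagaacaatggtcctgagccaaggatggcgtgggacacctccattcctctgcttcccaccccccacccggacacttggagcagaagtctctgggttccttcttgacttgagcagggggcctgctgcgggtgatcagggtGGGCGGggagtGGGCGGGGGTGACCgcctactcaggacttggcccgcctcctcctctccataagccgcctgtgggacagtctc
In the Ptgs2 promoter the capitals mark, in order, a GC box (GGGCGG), a C/EBP match (TTGCNNAA), a kappaB match (GGG and CC with any 5 bases between) and a cyclic AMP response motif (TGACG, read on the other strand) that overlaps an E-box (CACGTG). In the Ptges promoter they mark 2 GC boxes and a kappaB match that overlaps the second of them. Both strands were searched in the same window of 32851 promoters. The C/EBP letters occurred in 10.4% of these, the E-box in 6.79%, the cyclic AMP motif in 19.9%, the GC box in 34.7% and the loose kappaB letters in 48.9%. The letters TTCNNNGAA of an interferon gamma activated site, found in 7.83% of promoters, were in neither window. A match describes letters only, and no binding was measured.

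The genes lie, by GENCODE vM21 on GRCm38, on 5 chromosomes: Arg1 at chr10:24915221-24927484 (minus strand), Nos2 at chr11:78920787-78960254 (plus), Ass1 at chr2:31470207-31520672 (plus), Slc7a2 at chr8:40862396-40922308 (plus), Ptgs2 at chr1:150100031-150108227 (plus), Ptges at chr2:30889471-30929863 (minus) and Ido1 at chr8:24584136-24597009 (minus). The RefSeq start of Ptges lies inside the GENCODE gene. Counts per gene do not tell exons, introns or isoforms apart.

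Under vehicle, Arg1 and Ass1 were higher in the sorted leukocytes than in whole tumor, and Ptgs2, Ptges and Ido1 were lower. The sorted cells carried the leukocyte gene Ptprc at 1184 to 1631 CPM, against 107.3 to 589.1 CPM in tumor, the macrophage gene Cd68 at 66.2 to 836.3 CPM and the neutrophil gene Ly6g at 0 to 0.0781 CPM. Relative to exon length, the vehicle sorted cells held Ass1 at 162.1 ± 36.3 CPM per kb (SD, n = 4) and Arg1 at 105.4 ± 24.4. Nos2 followed at 5.67 CPM per kb, Ptgs2 at 3.79 and Slc7a2 at 1.24, with Ptges at 0.780 and Ido1 at 0.153. In whole tumor the order on the same scale was Arg1 at 40.4 ± 20.5 CPM per kb, Ptges at 24.6 ± 1.11, Ass1 at 21.9 ± 1.33, Ptgs2 at 11.01, Nos2 at 5.08, Slc7a2 at 2.01 and Ido1 at 1.74. Arg1, Ptges and Ass1 in tumor did not differ beyond the spread of Arg1. Thus Arg1 and Ass1 led in sorted cells, while Ptges stood second in the tumor and next to last in the sorted cells.

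The quasi-likelihood test of edgeR, adjusted by Benjamini-Hochberg over all genes with a threshold of 0.05, gave the sizes of these differences. A gene past that threshold is said to be called. Between vehicle sorted cells and vehicle tumor, 33.9% of all genes were called higher and 39.3% lower, and 2 and 3 of the 7 genes respectively, a share near the background. Ptges was at 90.3 to 99.9 CPM in the 4 vehicle tumors and at 1.73 to 4.37 CPM in the 4 vehicle sorted libraries, a log2 difference of -4.73 ± 0.25 (SE, adjusted p = 3.36e-07). Ass1 was at 48.9 to 56.0 CPM in tumor and at 297.0 to 497.3 CPM in sorted cells (log2 difference 3.12 ± 0.17, adjusted p = 4.14e-07). Both ranges were far apart, and Ptges and Ass1 lay in opposite directions. The log2 difference was 1.61 ± 0.40 for Arg1 (adjusted p = 0.00496), -1.31 ± 0.41 for Ptgs2 (0.0157) and -3.35 ± 0.73 for Ido1 (0.00229). Nos2 and Slc7a2 were not called, at 0.40 ± 0.59 (adjusted p = 0.552) and -0.48 ± 0.26 (0.118). Thus Ptgs2, Ptges and Ido1 were lower in the leukocyte gate than in the tumor as a whole. The gate leaves out Ly6G+ neutrophils, which are myeloid cells, and the sorted cells came from other mice, so which cells made the RNA of each gene was not tested. In bulk RNA, fewer cells of a type and less RNA per cell cannot be told apart, here and in all later comparisons.

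**Figure D1:**
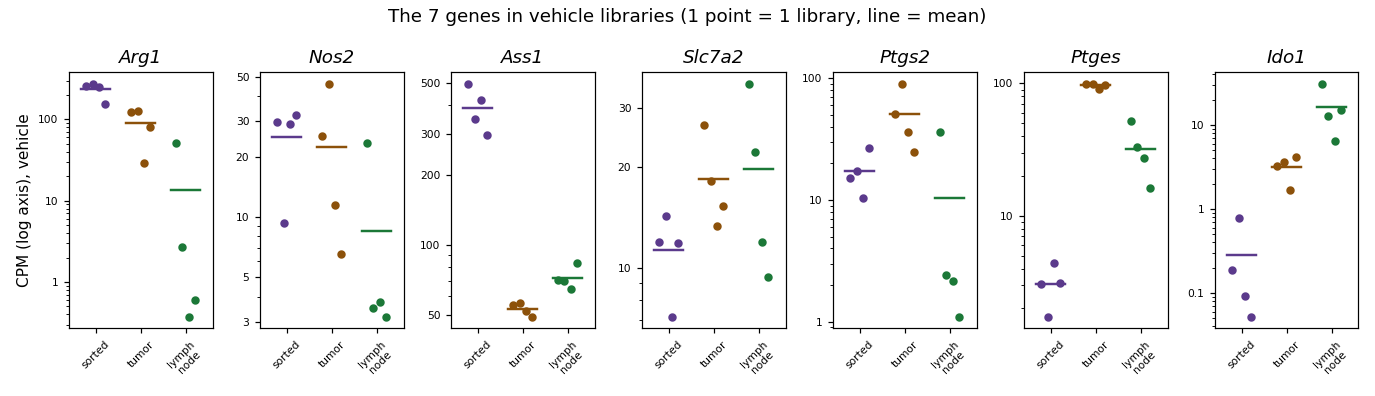
Level of each gene in vehicle libraries of sorted cells, tumor and lymph node, in CPM scaled within each material on a log axis, with 1 point per library and a line at each mean. Ass1 and Arg1 are highest in sorted cells, Ptges in tumor and Ido1 in lymph node, and 1 lymph node library stands above the others for Arg1, Nos2 and Ptgs2.

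Lymph node and blood held these genes at other levels. Vehicle lymph node carried Ass1 at 29.8 CPM per kb, Ido1 at 8.97, Ptges at 8.20 and Arg1 at 6.14, the last through 1 library. Vehicle tumor was higher than vehicle lymph node for Ptges (log2 difference 1.53 ± 0.31, adjusted p = 0.00214) and lower for Ido1 (-2.42 ± 0.50, adjusted p = 0.00223) and for Ass1 (-0.50 ± 0.09, adjusted p = 0.000693), where 38.4% of all genes were called higher and 39.4% lower. Without lymph node vehicle 1, Arg1 (log2 difference 6.13, adjusted p = 0.00113), Nos2 (2.598, 0.0143) and Ptgs2 (4.66, 0.000418) were called higher in tumor as well. With the animal as a block, where 36.7% of genes were called higher, Arg1 (4.97, adjusted p = 0.0157) and Ptgs2 (3.59, 0.0216) were added to the 3, and with lymph node vehicle 3 put back the difference for Ptges was 0.99 (0.0966). In the 5 vehicle blood libraries Nos2 and Ido1 had 0 counts, Arg1 and Slc7a2 had 0 or 1 and Ptges had 1 to 5, where 3 counts are worth 0.0320 to 0.0512 CPM. Ass1 had 203 to 362 counts in blood and Ptgs2 had 20 to 380. Against vehicle lymph node, 6 of the 7 genes were called lower in blood, where 43.5% of all genes were, and Ptgs2 was not (0.65 ± 1.34, adjusted p = 0.678). With the animal as a block Ptgs2 was called higher in blood (1.01, adjusted p = 0.00207). These tests used a scaling over both materials. On CPM scaled within each material, mean Ptgs2 was lower in blood, at 1.2 against 10.43 CPM in lymph node. Its direction thus depended on the scaling, and on the scaling over both materials it also depended on single libraries. Leaving out 1 of the 9 libraries at a time gave log2 differences from -0.72 to 3.15, of which 1 was called. Ass1 was lower in blood by a log2 difference of -0.50 ± 0.13 (adjusted p = 0.00355) on the scaling over both materials. Its mean was 3.79 CPM in blood, or 28.6 CPM of counts outside haemoglobin, against 71.9 CPM in lymph node. The direction for Ass1 was the same on each scale, and the size depended on the scaling. For the other 5, at 0 to 5 counts in blood, no size is given. The call for Arg1 (adjusted p = 0.0358) was lost on leaving out any 1 of the 5 blood libraries, and without the filter on low counts those for Arg1 (0.0549) and Nos2 (0.0674) were lost.

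In whole tumor, ATOR-4066 went with higher levels of 6 of the 7 genes, each without overlap between the 4 treated and the 4 vehicle tumors, but none passed the adjusted threshold. Among all genes, 12.6% had ATOR-4066 libraries that all lay above vehicle, and 0.916% were called higher and 0.401% lower. The median log2 difference was 1.65 over the 7 genes and 0.02 over all genes. At an unadjusted p under 0.05 there were 6 of the 7 genes and 4552 of 18454 genes.

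For the arginine enzymes, the 4 vehicle tumors had Arg1 at 123.7, 126.1, 29.0 and 80.9 CPM and the 4 ATOR-4066 tumors at 662.4, 1205, 444.2 and 428.7 CPM. The lowest treated tumor was above the highest vehicle tumor, and the log2 difference was 2.93 ± 0.67 (adjusted p = 0.0521). Nos2 stood at 25.3, 46.3, 11.52 and 6.50 CPM under vehicle and at 329.2, 195.1, 463.0 and 139.9 CPM under ATOR-4066, a log2 difference of 3.65 ± 0.93 (adjusted p = 0.0607). The tumor with the most Arg1 was not the one with the most Nos2, as ATOR-4066 2 led for the former and ATOR-4066 4 for the latter. Slc7a2, the arginine transporter, lay at 13.4 to 26.6 CPM under vehicle and at 33.0 to 97.3 CPM under ATOR-4066 (1.65 ± 0.44, adjusted p = 0.0643). Ass1 was at 48.9 to 56.0 and at 77.8 to 213.2 CPM (1.22 ± 0.42, adjusted p = 0.106).

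For the prostaglandin enzymes, Ptgs2 was at 50.96, 90.3, 35.9 and 24.5 CPM in vehicle tumors and at 722.1, 1230, 212.4 and 308.4 CPM in ATOR-4066 tumors (log2 difference 3.62 ± 0.92, adjusted p = 0.0596). Ptges, the next enzyme of the path, was at 98.7, 99.9, 90.3 and 98.2 CPM and at 207.0, 207.3, 118.5 and 105.2 CPM (0.72 ± 0.23, adjusted p = 0.0894). The groups did not overlap for either gene, and the 2 tumors with the most Ptgs2, ATOR-4066 1 and 2, also had the most Ptges. Vehicle tumors were nearly alike in Ptges, with a coefficient of variation of 4.52%, and differed in Ptgs2, with 56.9%. Ido1 was at 1.69 to 4.16 CPM under vehicle and 0.560 to 8.98 CPM under ATOR-4066, with a log2 difference of 0.00 ± 1.07. An interval of 2 SE to each side ran from -2.14 to 2.14.

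The calls for these 6 genes in tumor differed between the fits. DESeq2 called all 6 higher, with adjusted p from 0.000204 for Arg1 to 0.0378 for Ass1, where it called 6.92% of all genes higher. A fit with only the vehicle and ATOR-4066 tumors also called 6, with adjusted p from 0.00566 to 0.0455, where 11.7% of genes were called higher. With the left-out tumor put back none was called, and Ptges was at a log2 difference of 0.47 (adjusted p = 0.445).

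Neutrophil genes moved beside these values. Of 8 neutrophil markers tested in tumor, 3 rose under ATOR-4066 and none fell, with a median log2 difference of 2.69. S100a9 was at 0.235 to 0.806 CPM under vehicle and at 4.14 to 53.2 CPM under ATOR-4066 (5.43 ± 1.09, adjusted p = 0.0421). S100a8 (4.86 ± 0.99, 0.0433) and the chemokine receptor Cxcr2 (3.73 ± 0.81, 0.0480) rose likewise. Ly6g itself was at 0.0161 to 0.0199 CPM and at 0.0592 to 0.487 CPM. The summed neutrophil list overlapped between vehicle (303.0 to 406.3 CPM) and ATOR-4066 (132.5 to 521.5 CPM), since it is dominated by Mmp9, which was not called (-1.24, adjusted p = 0.225). Macrophage markers summed to 5395 to 7620 CPM under vehicle and 4649 to 7246 CPM under ATOR-4066, and 0 of 12 were called. Fibroblast markers summed to 10810 to 15230 CPM under vehicle and 4702 to 9832 CPM under ATOR-4066, without overlap, and 0 of 7 were called. The part of neutrophils and of fibroblasts in the tumor values of the 7 genes was not tested.

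**Figure D2:**
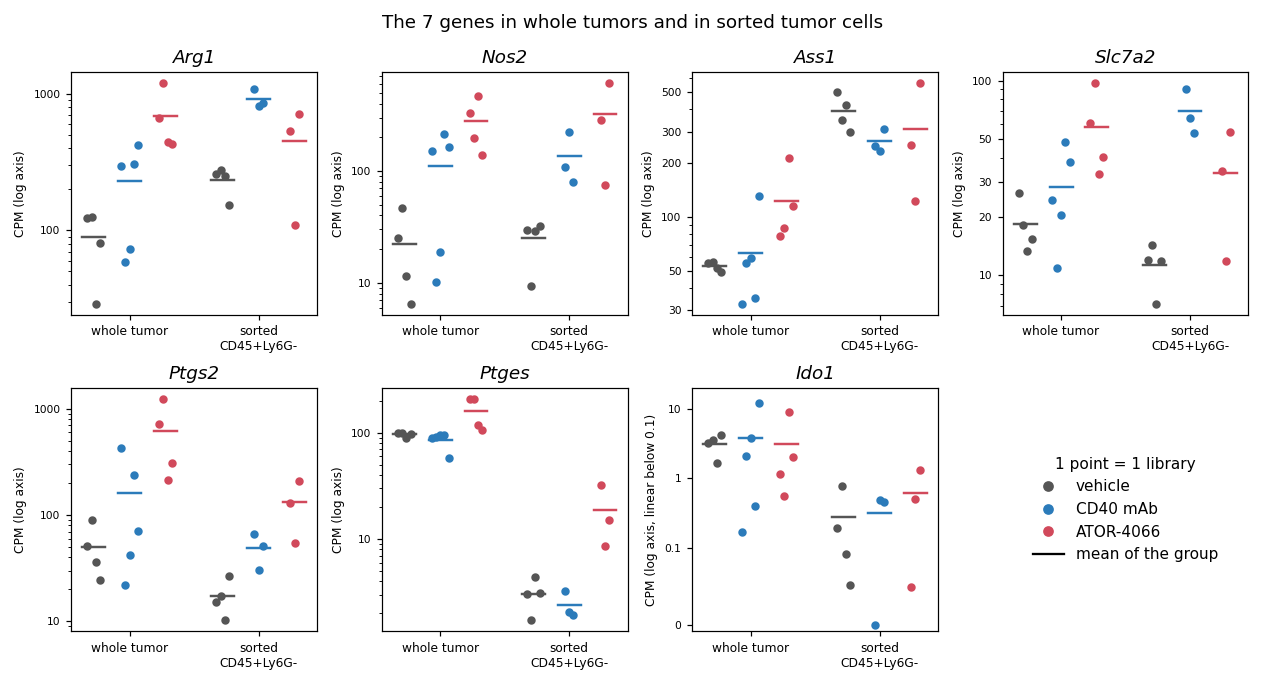
Level of each gene in tumor and in sorted CD45+Ly6G- cells by treatment, in CPM on a log axis (for Ido1 linear below 0.1 CPM), with 1 point per library and a line at each mean. In tumor the ATOR-4066 points lie above the vehicle points for all genes but Ido1, and in sorted cells they do so for Nos2, Ptgs2 and Ptges.

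The CD40 mAb gave a wider scatter in tumor, and no gene of the 18454 tested was called (0%), whereas 2205 were at an unadjusted p under 0.05, among them Arg1 and Nos2. DESeq2 called 30 genes and none of the 7. None of the 7 had groups without overlap, against 1.8% of all genes above and 1.85% below vehicle. Arg1 was at 296.8, 58.7, 73.2, 306.6 and 420.1 CPM (log2 difference from vehicle 1.36 ± 0.61, adjusted p = 0.412) and Nos2 at 150.9, 10.1, 19.0, 212.4 and 163.0 CPM (2.31 ± 0.86, 0.412). Ptgs2 was at 426.1, 21.9, 41.98, 240.1 and 70.8 CPM (1.67 ± 0.82, 0.416). The CD40 mAb tumors 2 and 3 lay within or below the vehicle range for Arg1, Nos2 and Ptgs2, and the other 3 lay above it for Arg1 and Nos2. CD40 mAb 5 stood apart in 2 more genes, with Ass1 at 131.0 CPM (32.7 to 59.0 in the other 4) and Ptges at 57.9 CPM (90.0 to 95.7). Its T cell markers summed to 906.9 CPM against 27.8 to 104.2 in the other 4, and its macrophage markers to 18110 CPM; their part in these values was not tested.

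In the sorted CD45+Ly6G- cells, ATOR-4066 raised Nos2, Slc7a2, Ptgs2 and Ptges against vehicle, 4 of the 7 genes where 6.76% of all genes were called higher and 5.11% lower. Nos2 was at 29.6, 9.34, 29.0 and 32.2 CPM in vehicle cells and at 283.2, 75.2 and 611.9 CPM in ATOR-4066 cells, a log2 difference of 3.69 ± 0.68 (adjusted p = 0.0123). Ptgs2 was at 15.1, 17.2, 10.3 and 26.8 CPM and at 130.5, 54.9 and 208.4 CPM (2.92 ± 0.46, adjusted p = 0.0102). Every treated library was above every vehicle library in both genes, and in both the order was ATOR-4066 10, then 6, then 9. Ptges was at 3.04, 1.73, 4.37 and 3.13 CPM in vehicle cells and at 32.5, 8.66 and 15.1 CPM in treated cells (2.61 ± 0.45, adjusted p = 0.0108). It did not overlap either, and here ATOR-4066 6 was the highest. Among all genes, 14.2% had ATOR-4066 libraries that all lay above vehicle. Nos2, Ptgs2 and Ptges were also called by DESeq2 and on leaving out any 1 of the 7 libraries.

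Slc7a2 was at 11.9, 14.3, 7.15 and 11.8 CPM in vehicle cells and at 34.5, 11.9 and 54.4 CPM in ATOR-4066 cells (1.57 ± 0.43, adjusted p = 0.0415). ATOR-4066 9 lay within the vehicle range, and the call was lost on leaving out any 1 of 6 of the 7 libraries (adjusted p 0.0535 to 0.112), ATOR-4066 9 being the exception. Arg1 was at 256.9, 275.4, 252.4 and 154.6 CPM under vehicle and at 537.8, 110.1 and 713.8 CPM under ATOR-4066 (0.95 ± 0.48, adjusted p = 0.22). Without ATOR-4066 9 the difference for Arg1 was 1.41 (adjusted p = 0.011). Ass1 was at 297.0 to 497.3 CPM and at 251.2, 123.0 and 561.9 CPM (-0.33 ± 0.41, adjusted p = 0.652), and without ATOR-4066 10 it fell by 1.08 (adjusted p = 0.0422). Ido1 was at or under 0.783 CPM in vehicle cells and 1.32 CPM in treated cells. The interval of its log2 difference, drawn as in tumor, ran from -1.60 to 3.94.

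The makeup of the sorted cells differed between the groups. All 7 T cell markers were called higher under ATOR-4066, with summed levels of 1523 to 3280 CPM against 502.1 to 766.0 under vehicle, and 4 of 12 macrophage markers were called lower and 1 higher, with 770.7 to 4662 CPM against 8252 to 10520. ATOR-4066 9, the lowest of the 3 in Arg1, Nos2, Ass1, Slc7a2, Ptgs2 and Ptges, had the fewest macrophage and the most T cell marker counts (770.7 and 3280 CPM) and 342.1 CPM of B cell markers. Neutrophil markers summed to 174.3 to 276.2 CPM under vehicle and 61.7 to 221.9 CPM under ATOR-4066. Most of the vehicle sum was Csf3r (158.0 to 259.1 CPM), which was not called (-1.04 ± 0.59, adjusted p = 0.281). Of 7 neutrophil markers tested, 1 was called higher and 0 lower, with a median log2 difference of 1.14. The 1 called was S100a8 (5.20 ± 1.46, adjusted p = 0.0458), at 0.215 to 2.74 CPM under ATOR-4066. Nos2, Ptgs2 and Ptges rose while the macrophage sum was lower; the part of cell makeup in the levels of the 7 genes was not tested.

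Under the CD40 mAb, the sorted cells raised Slc7a2, the only one of the 7 genes called where 0.534% of all genes were called higher. Its 3 libraries were at 91.0, 64.5 and 54.1 CPM, all above the vehicle maximum of 14.3 CPM (log2 difference 2.63 ± 0.43, adjusted p = 0.0367). That call was lost without vehicle 6, 9 or 10 or CD40 mAb 6 or 10 (adjusted p 0.0857 to 0.143). Arg1 was at 1083, 817.4 and 857.3 CPM (1.97 ± 0.48, adjusted p = 0.0731), Nos2 at 107.8, 221.8 and 79.6 CPM (2.44 ± 0.65, 0.0859) and Ptgs2 at 66.4, 30.5 and 50.6 CPM (1.505 ± 0.45, 0.11). These 4 genes lay wholly above vehicle, as did 9.85% of all genes. DESeq2 called all 4, with 4.15% of all genes called higher. Ptges was at 3.23, 2.04 and 1.94 CPM, within the vehicle range (-0.35 ± 0.45, adjusted p = 0.735), and Ass1 was at 250.3, 232.6 and 309.7 CPM (-0.57 ± 0.41, 0.512). Macrophage markers summed to 5846 to 19510 CPM in these cells and T cell markers to 227.0 to 480.2 CPM.

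The antibodies were also compared with each other, in comparisons that share these libraries with those against vehicle. In sorted cells, Ptges was higher under ATOR-4066 than under the CD40 mAb (8.66 to 32.5 against 1.94 to 3.23 CPM, log2 difference 2.96 ± 0.51, adjusted p = 0.0145), the only one of the 7 called where 5.27% of all genes were called higher and 2.96% lower. The call was lost without CD40 mAb 7 (adjusted p = 0.0524) or 10 (0.0704) and in a fit of these 2 groups alone (0.0911). Ptgs2 was at a log2 difference of 1.42 ± 0.48 (adjusted p = 0.0965) and Nos2 at 1.25 (0.277). Ptges did not overlap between the antibodies, as was so for 17% of all genes in that direction. Arg1 lay the other way, with all 3 ATOR-4066 libraries below all 3 of the CD40 mAb, as did 13.6% of all genes, but it was not called (-1.02 ± 0.52, adjusted p = 0.238). Slc7a2 was at -1.06 ± 0.46 (0.17). Thus the antibodies differed by test in Ptges, and the intervals of the other 6 genes do not show that they act alike.

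In tumor, none of the 7 was called between the antibodies, where 6 genes were called in all (0.0325% higher or lower). Arg1 (1.57 ± 0.59, adjusted p = 0.413) and Ptges (0.89 ± 0.21, 0.196) lay wholly above the CD40 mAb, as did 0.954% of all genes. At an unadjusted p under 0.05 there were 5 of the 7 and 1879 genes, and DESeq2 called Ptges (adjusted p = 0.0104), with 1.03% of all genes called higher. Without CD40 mAb 5, Ass1 was at 1.44 (adjusted p = 0.039).

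**Figure D3:**
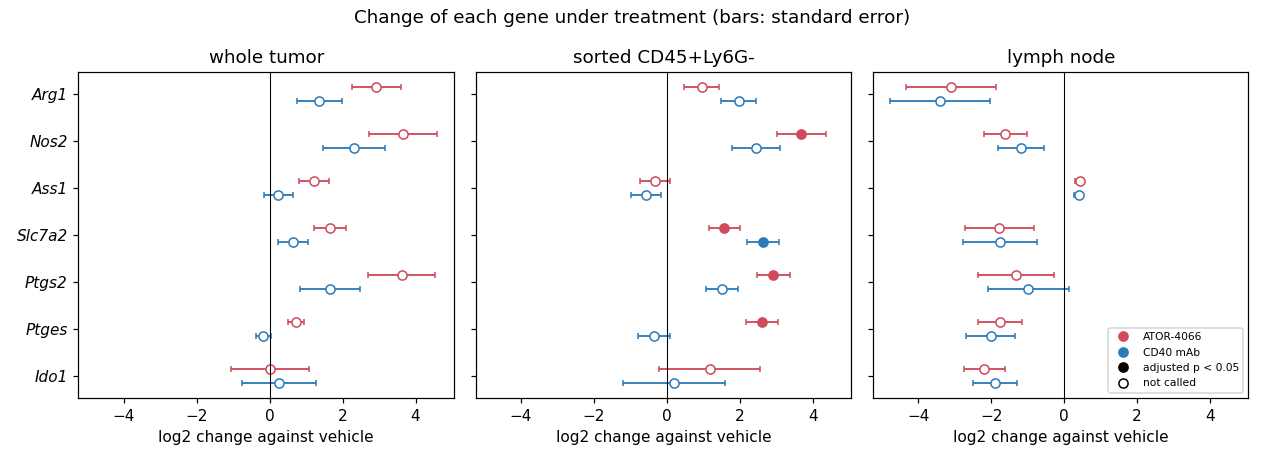
Log2 difference of each gene from vehicle under ATOR-4066 and the CD40 mAb in tumor, sorted cells and lymph node, with standard errors as bars and filled points where the adjusted p is under 0.05. The filled points are in sorted cells, for Nos2, Slc7a2, Ptgs2 and Ptges under ATOR-4066 and for Slc7a2 under the CD40 mAb.

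The effects of ATOR-4066 in sorted cells and in whole tumor were compared directly in 1 fit. Ptges differed, with a rise in sorted cells larger than that in tumor by 1.86 ± 0.48 on the log2 scale (adjusted p = 0.0215), where 4.41% of all genes were called higher. In CPM the rise was larger in tumor, as the mean went from 96.8 to 159.5 there and from 3.07 to 18.8 in sorted cells. The call was lost without sorted ATOR-4066 6 (1.24, adjusted p = 0.0854) and with limma's voom and sample weights (1.78, 0.069). Nos2 had a difference of 0.01 ± 1.16, Slc7a2 of -0.10 ± 0.64 and Ptgs2 of -0.72 ± 1.05. Arg1 was at -1.998 ± 0.87 (adjusted p = 0.147) and Ass1 at -1.56 ± 0.63 (0.117), both lower in sorted cells. For the CD40 mAb none of the 7 was called, where 0.455% of all genes were, and Slc7a2 was at 2.05 ± 0.62 (adjusted p = 0.136). At an unadjusted p under 0.05 there were 1 of the 7 and 3086 genes. Sorted cells and tumors came from other mice and preparations, so material, animals and sorting cannot be told apart in these differences.

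In lymph node the pattern of the tumor was not seen, and no treatment called any of the 7 genes. Against vehicle, 0 of 18671 genes were called under ATOR-4066 (0%; 2954 at an unadjusted p under 0.05, 5 of the 7 among them) and 12 under the CD40 mAb (0.0643%; 4409 at an unadjusted p under 0.05, 4 of the 7 among them). Between the antibodies 3 genes were called (0.0161%), and 1740 genes and none of the 7 were at an unadjusted p under 0.05. Ido1, highest here of all materials, was at 31.1, 12.9, 6.52 and 14.9 CPM under vehicle, at 5.99, 2.58, 6.79 and 2.11 CPM under the CD40 mAb and at 2.76, 2.03, 2.22, 2.43 and 8.38 CPM under ATOR-4066. Vehicle libraries were the highest with 1 overlap in each treated group, and the log2 differences were -1.91 ± 0.60 (adjusted p = 0.108) and -2.19 ± 0.56 (0.222). DESeq2 called Ido1 in both (0.00905 and 0.00479), with 3.99% and 1.44% of all genes called lower.

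Ptges in lymph node was at 52.5, 33.0, 27.2 and 16.2 CPM under vehicle, at 8.82, 6.77, 11.97 and 4.25 CPM under the CD40 mAb (-2.02 ± 0.66, adjusted p = 0.117) and at 14.8, 4.78, 2.78, 3.47 and 21.4 CPM under ATOR-4066 (-1.76 ± 0.61, 0.239). Slc7a2 went from 9.39 to 35.4 CPM under vehicle to 2.36 to 9.35 CPM under the CD40 mAb and 0.470 to 18.4 CPM under ATOR-4066. Both genes lay wholly below vehicle under the CD40 mAb, as did 9.45% of all genes. Epithelial markers differed among these libraries in a like order, with sums of 406.1, 283.9, 183.8 and 141.2 CPM under vehicle, 147.1, 42.7, 79.7 and 29.6 CPM under the CD40 mAb and 226.3, 38.1, 19.0, 21.4 and 210.1 CPM under ATOR-4066. The 2 ATOR-4066 libraries with epithelial sums over 200 CPM, 1 and 5, were also the highest of their group in Ptges, Slc7a2 and Ido1; the part of epithelium in these values was not tested. Ass1 lay the other way, at 64.1 to 83.4 CPM under vehicle, 83.7 to 111.0 CPM under the CD40 mAb (0.40 ± 0.13, adjusted p = 0.116, without overlap, as were 8.27% of all genes above vehicle) and 82.0 to 120.9 CPM under ATOR-4066 (0.42 ± 0.13, 0.222).

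Arg1, Nos2 and Ptgs2 in lymph node turned on 1 library. Vehicle 1 had Arg1 at 51.04 CPM, Nos2 at 23.4 CPM and Ptgs2 at 36.0 CPM, while the other 3 vehicle libraries had 0.374 to 2.66, 3.17 to 3.78 and 1.10 to 2.41 CPM. Its fibroblast markers summed to 1684 CPM (404.4 to 1195 in the other lymph node libraries) and its epithelial markers to 406.1 CPM. With it, the log2 differences under ATOR-4066 were -3.11 for Arg1, -1.61 for Nos2 and -1.32 for Ptgs2, and without it they were 0.38 (adjusted p = 0.902), -0.34 and 1.14 (0.683). Ptges (-1.43), Slc7a2 (-1.33) and Ido1 (-1.67, adjusted p = 0.551) kept their direction without it.

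**Figure D4:**
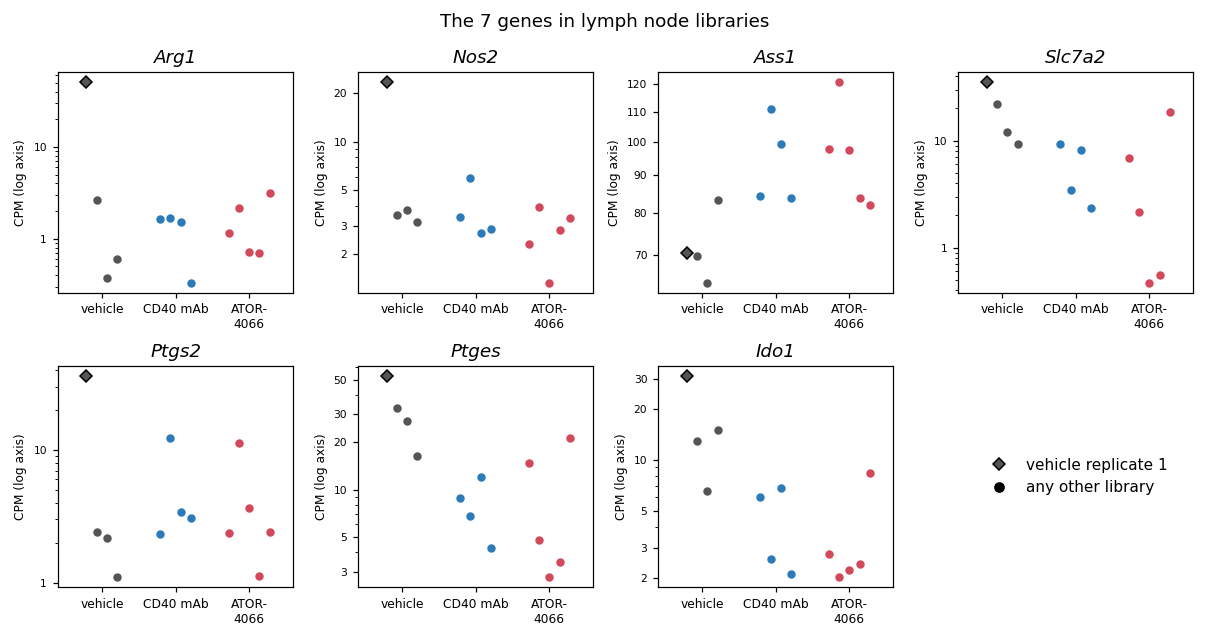
Level of each gene in lymph node by treatment, in CPM on a log axis, 1 point per library, with vehicle 1 as a diamond. Vehicle 1 is the highest point for all genes but Ass1, and most treated libraries lie below vehicle for Ptges, Slc7a2 and Ido1.

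The difference between the ATOR-4066 effect in tumor and that in lymph node was called for 4 of the 7 genes in a fit without the animal, and these calls were not stable. Arg1 (6.04 ± 1.44, adjusted p = 0.0231), Nos2 (5.25 ± 1.11, 0.016), Ptgs2 (4.95 ± 1.42, 0.0417) and Ptges (2.48 ± 0.66, 0.0322) were called, with a more positive effect in tumor, where 3.83% of all genes were called higher. Without lymph node vehicle 1 none was called, at 2.50 (adjusted p = 0.156), 3.96 (0.0594), 2.45 (0.236) and 2.13 (0.0948), and none was with the 2 left-out libraries put back. With limma's voom and the animal as a block, the calls for Arg1 (adjusted p = 0.12) and Ptgs2 (0.103) were lost, Slc7a2 was called (4.03, 0.0399) and 3 of the 7 were called in all. On leaving out each of the 17 libraries in turn, Nos2 was called 16 times, Arg1 14, Ptges 7 and Ptgs2 6. For the CD40 mAb none of the 7 was called among 0 genes in all, and 4 of the 7 and 5040 genes were at an unadjusted p under 0.05. With limma's voom and the animal as a block, 239 genes were called.

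In blood, 2 of the 7 genes passed the filter on low counts, Ass1 and Ptgs2, and neither was called. Ass1 was at 2.76 to 4.96 CPM under vehicle (median 3.74), 3.50 to 7.69 CPM under the CD40 mAb (log2 difference 0.48 ± 0.19, adjusted p = 0.0605, where 22.2% of all genes were called higher and 12.4% lower) and 3.41 to 4.29 CPM under ATOR-4066 (0.05 ± 0.20, 0.941, where 0.435% were called). Its direction under the CD40 mAb depended on the scaling: as CPM of counts outside haemoglobin, with no further scaling, Ass1 was at 28.6 ± 5.06 (SD, n = 5) under vehicle and 14.0 ± 3.51 (n = 5) under the CD40 mAb. In all 5 alternative fits, among them the fit with haemoglobin genes removed, the log2 difference stayed positive, at 0.39 to 0.50. Without CD40 mAb 1 (0.61, adjusted p = 0.00855) or vehicle 2 (0.60, 0.0288) the scaled difference was called. Between the antibodies, where 10.8% of genes were called lower, Ass1 was at -0.44 ± 0.21 (adjusted p = 0.191), and at -0.57 (0.035) without CD40 mAb 1. Ptgs2 was at 4.05 CPM in vehicle 1 and 0.323 to 0.973 CPM in the other 4, with log2 differences of -1.09 (adjusted p = 0.318) under the CD40 mAb and -1.85 ± 0.87 (0.339) under ATOR-4066. Leaving out 1 library at a time moved these differences for Ptgs2 between -1.34 and 0.25 under the CD40 mAb and between -2.65 and -0.51 under ATOR-4066. At an unadjusted p under 0.05 there were 1831 genes under ATOR-4066 and none of the 7, and 5449 genes and Ass1 under the CD40 mAb.

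Around these enzymes, 4 lists of pathway genes were followed. In tumor under ATOR-4066, 2 of 25 tested genes of the arginine, citrulline and polyamine list rose and none fell (list median log2 0.08, all genes 0.02), where 0.916% of all genes were called higher and 0.401% lower. These were Gch1, which starts synthesis of the tetrahydrobiopterin that nitric oxide synthases need (12.6 ± 1.28 to 31.7 ± 8.76 CPM, 1.33 ± 0.21, adjusted p = 0.0392), and the spermine oxidase Smox (1.74 ± 0.33, 0.0418). Of 22 prostanoid genes 1 rose, the prostacyclin receptor Ptgir (1.81 ± 0.36, 0.042), with a list median of 0.28. Of 23 signals and transcription factors 3 rose and none fell (median 0.63). They were Cebpb, a C/EBP factor (55.5 ± 5.61 to 172.5 ± 14.6 CPM, 1.64 ± 0.28, adjusted p = 0.0399), and the cytokines Il6 (3.21 ± 0.62, 0.042) and Il1a (3.87 ± 0.81, 0.0433). None of 16 tryptophan genes was called (median 0.27). Under the CD40 mAb none of these lists had a called gene in tumor.

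In sorted cells under ATOR-4066, several other genes of the prostanoid list moved against Ptgs2 and Ptges. The constitutive cyclooxygenase Ptgs1 fell from 15.5 ± 4.80 to 4.28 ± 1.17 CPM (-1.86 ± 0.35, adjusted p = 0.0124), as did the prostaglandin D synthase Hpgds (22.1 ± 11.47 to 2.58 ± 0.816 CPM, -3.10 ± 0.65, 0.018) and the thromboxane synthase Tbxas1 (-1.63 ± 0.39, 0.0281), while the thromboxane receptor Tbxa2r rose (2.30 ± 0.46, 0.0153). Thus 1 of 22 prostanoid genes rose and 3 fell, with a list median of -0.21 against -0.02 over all genes, of which 6.76% were called higher and 5.11% lower. Of 23 arginine list genes, Odc1, which turns the ornithine made by arginase into putrescine, rose from 150.4 ± 20.7 to 383.5 ± 69.3 CPM (1.35 ± 0.20, adjusted p = 0.00829) and the spermine synthase Sms rose (0.71 ± 0.20, 0.0469). Ddah2 (-1.50 ± 0.37, 0.0291) and Ddah1 (0.510 to 0.0159 CPM, 0.0341), which break down inhibitors of nitric oxide synthases, fell (list median 0.20). Of 22 signals, Il1a (2.38 ± 0.45, 0.0131), Tnf (1.19 ± 0.25, 0.0182), Hif1a (0.76 ± 0.19, 0.0302) and Ifng (1.48 ± 0.38, 0.0356), a T cell cytokine that induces Nos2, rose and none fell (median 0.10). Of 13 tryptophan genes Haao fell (-1.34 ± 0.22, 0.0102; median -0.17). Tbxas1 and Hpgds are known from macrophages and related cells, whose marker sum was also lower here; that relation was not tested.

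Under the CD40 mAb, sorted cells had 1 called gene in these lists, the leukotriene C4 synthase Ltc4s (1.87 ± 0.840 to 20.2 ± 11.99 CPM, 3.43 ± 0.64, adjusted p = 0.0446). Between the antibodies, Ptgs1 (-2.16 ± 0.37, 0.014), Tbxas1 (-2.21 ± 0.42, 0.0197), Ltc4s (-3.70 ± 0.73, 0.0213) and Alox5 (-2.63 ± 0.58, 0.0291) were lower under ATOR-4066, 4 of 22 prostanoid genes with none higher, where 2.96% of all genes were called lower and 5.27% higher. Odc1 (1.46 ± 0.22, adjusted p = 0.0111), Ifng (2.05 ± 0.43, 0.0248), Tnf (1.16 ± 0.28, 0.0343) and Il1a (2.01 ± 0.50, 0.0378) were higher. Ptges was thus higher under ATOR-4066 where 4 other eicosanoid genes were lower. In lymph node none of the 4 lists had a called gene between treatments. In blood under the CD40 mAb, 10 of 22 arginine list genes rose and 1 fell, where 22.2% of all genes were called higher and 12.4% lower. Among those that rose were Azin1 (3.28 ± 0.41, adjusted p = 0.000101) and Smox (3.89 ± 0.51, 0.000101), with a list median of 0.28 against -0.05; smaller differences in blood can turn with the scaling, as that of Ass1 did. In the same comparison all 7 erythroid and all 11 neutrophil markers were called higher and 4 of 5 B cell markers lower, and their part in the list was not tested.

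The 7 genes also differed in which genes and which of each other they tracked. Over the 23 tumor and sorted libraries, with each material's mean subtracted, Arg1 and Slc7a2 had a Pearson correlation of 0.87, Nos2 and Ptgs2 of 0.851 and Arg1 and Nos2 of 0.795. Ptgs2 and Ptges, which act in sequence, had 0.567, Ptges and Arg1 had 0.165, and Ido1 had -0.351 to 0.519 with the other 6. Among 10821 genes, those most like Arg1 were Card19 (0.949), F10 (0.945), F7 (0.943) and Pik3r5 (0.932), and those most like Slc7a2 were F7 (0.938), Rnf128 (0.899), Wsb2 (0.887) and Fam20c (0.875). Nos2 was most like Cdkn1a (0.901), Osbpl8 (0.898), Mdm2 (0.896) and Adam8 (0.877), and Ptgs2 most like Tnfrsf23 (0.93), Slc7a11 (0.918), Mdm2 (0.917) and Eaf1 (0.914). F7 was thus shared by Arg1 and Slc7a2, and Mdm2 by Nos2 and Ptgs2. Ass1 was most like Slfn1 (0.876), Acod1 (0.874), Prdx5 (0.87) and Slfn2 (0.869), Ptges like Sdc1 (0.804), Inhba (0.804), Dusp14 (0.802) and Phlda1 (0.795), and Ido1 like Plaat3 (0.818), Limd2 (0.815), Cnp (0.809) and Gpr18 (0.804). For Ido1 and its 4 genes the correlation was 0.861 to 0.949 within tumor and 0.068 to 0.495 within sorted cells. There Ido1 had 0 to 57 counts. For Ptges, Inhba and Dusp14 were at 0.494 and 0.512 within tumor and at 0.889 and 0.849 within sorted cells. All of these correlations share libraries, treatments and depth and are a description with no test.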

How the data were processed

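The authors deposited 1 table of estimated counts per gene, merged over 52 libraries by salmon per the name of the deposited table, and not scaled for depth or length. Per the submitters' processing notes, STAR (version given as 5.1) and genome build GRCm38 were used; no source used here gives the quantification settings. Per the labels' protocols the libraries were stranded and made from polyA RNA. Fractional values make up 11% of the deposited estimated counts, and they were rounded.

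The 3 treatments of each material were fitted together in edgeR 4.0.16 (R 4.3.3) with filterByExpr (count minimum 10, total 15), TMM factors and the robust quasi-likelihood F test, adjusted by Benjamini-Hochberg over all genes. All 7 genes passed the filter in tumor, sorted cells and lymph node, and 2 in blood. Vehicle libraries of 2 materials, and treatment effects between materials, were compared in fits over both materials, without the animal. CPM are on TMM-scaled library sizes within a material, SE is the log2 difference divided by the root of F, and per kb refers to merged GENCODE vM21 exons. Likeness used log2(CPM + 0.5). The tests were checked on simulated counts. Motifs were searched with Python 3.11.15.

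Alternatives were DESeq2 1.42.0, no filter, the 2 compared groups alone, a replicate block, limma 3.58.1 voom, haemoglobin removed, left-out libraries put back and each library left out. The 7 genes and the lists were chosen with earlier results of these data known. All 7 are named in all materials, as are up to 4 called genes of smallest p per list and comparison and the 4 genes most like each. Nothing in the labels ties each library to a separate culture or cage, and p-values measure the spread between libraries.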

Additional observations from a re-analysis of the deposited data

Results flagged for a closer look

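In 11 of 55 combinations of gene, material and treatment with 4 or 5 libraries, 1 library lay farther from the rest than Dixon's test allows at 95%. A chance rate of about 1 in 20 holds for independent groups of normally distributed values. These groups share libraries between genes and were taken in CPM without a log scale, so the share flagged cannot be set against that rate. In lymph node, vehicle 1 stood above the others in Arg1 (51.04 CPM, others 0.3743 to 2.656), Nos2 (23.39, others 3.174 to 3.779) and Ptgs2 (36.04, others 1.102 to 2.408). CD40 mAb 5 was low in Arg1 (0.3316 CPM, others 1.531 to 1.678), and Ptgs2 was high in CD40 mAb 3 (12.3, others 2.326 to 3.424) and in ATOR-4066 2 (11.36, others 1.125 to 3.666). Ido1 was high in ATOR-4066 5 (8.383 CPM, others 2.027 to 2.759). In tumor, CD40 mAb 5 was high in Ass1 (131 CPM, others 32.68 to 58.99) and low in Ptges (57.95, others 89.98 to 95.73). In sorted cells, vehicle 7 was low in Nos2 (9.337 CPM, others 28.99 to 32.19). In blood, vehicle 1 was high in Ptgs2 (4.049 CPM, others 0.3231 to 0.9726).

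The effect of ATOR-4066 differed between materials by a test of the difference for Ptges in sorted cells against tumor (1.865 on the log2 scale). That call was lost without sorted ATOR-4066 6 and with limma's voom and sample weights. The effect also differed for Arg1 (6.036), Nos2 (5.254), Ptgs2 (4.945) and Ptges (2.483) in tumor against lymph node, where the 4 calls were lost without lymph node vehicle 1.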

How the results depend on the processing

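Over 1635 results for the 7 genes under an alternative, no called difference reversed, 59 lost a call and 49 gained one. The rest kept their side of the threshold, with 1481 counted as the same and 46 as moved. In 89 results the sign changed with neither value called. DESeq2 called 6 of the 7 genes for ATOR-4066 against vehicle in tumor, 1 between the antibodies in tumor, 4 for the CD40 mAb against vehicle and 2 between the antibodies in sorted cells, and 1 (ATOR-4066) and 3 (CD40 mAb) against vehicle in lymph node. With the 2 groups alone the counts were 6 for ATOR-4066 in tumor, 4 for the CD40 mAb and 0 between the antibodies in sorted cells, and 1 for the CD40 mAb in lymph node. With no filter 0 genes were called for the CD40 mAb in sorted cells. With the replicate number as a block 0 were called there and 1 (Ass1, 0.47, adjusted p = 0.0301) for the CD40 mAb in blood. Same-numbered libraries of a material had correlations of -0.343 to 0.413 in tumor and -0.0835 to 0.173 in sorted cells. Those of different numbers had -0.437 to 0.492 and -0.292 to 0.306. Vehicle tumor and lymph node libraries of the same number had -0.195 to 0.0271, and those of different numbers -0.0878 to 0.102. These values thus cannot tell whether equal numbers pair libraries within a material. That they denote the same mouse across tumor and lymph node rests on the titles. The animal block called 5 for vehicle tumor against lymph node. For the ATOR-4066 effect, voom called 0 in sorted cells against tumor, and 0 were called in tumor against lymph node with the left-out libraries put back.

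Leaving out 1 library, the genes called ranged from 0 to 2 for the ATOR-4066 effect in sorted cells against tumor, 0 to 5 in tumor against lymph node, 0 to 2 for the CD40 mAb effect in tumor against lymph node, 0 to 1 for the CD40 mAb against vehicle in blood and in sorted cells and between the antibodies in blood and in tumor, 0 to 2 between the antibodies in sorted cells, 3 to 5 for ATOR-4066 against vehicle in sorted cells, and 3 to 6 for vehicle tumor against lymph node. Over all genes, DESeq2 called 2443 against 243 for ATOR-4066 in tumor, the 2 groups alone 3959, no filter 57 and the block or the left-out library put back 0. For the CD40 mAb in sorted cells 182 became 1527, 391, 732 and 14 with DESeq2, no filter, 2 groups and the block. With 3 to 5 libraries a group, differences such as that of Ido1 in tumor have intervals of over 4 log2 units, and Ido1 in sorted cells rests on few counts.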
